A study of Drosophila melanogaster with 30 samples.

Results

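Cell adhesion genes of the cadherin and immunoglobulin families were followed through RNA sequencing of *Drosophila* ovarian cells. The 10 genes were taken by symbol from the tables of normalized counts, which list 17807 genes. They are the cadherin genes *shg*, *CadN* and *Cad74A*, and the immunoglobulin family genes *Fas2*, *Nrg*, *ed*, *fred*, *Ama*, *DIP-kappa* and *Fas3*. Cadherins are calcium-dependent transmembrane proteins, and the classical ones bind their own kind on a neighbouring cell and are tied to actin by catenins. Immunoglobulin adhesion proteins bind like or unlike partners through extracellular immunoglobulin domains. In the ovary, adhesion proteins of one or the other family hold the follicular epithelium together, join it to the germline, and position the oocyte and the germline stem cells.

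The study asked how germline genes, and the transcription factor Ovo in particular, are controlled in germ cells and in ovarian somatic cells, and 30 libraries of 9 groups were used. Cells of *vas*-GFP ovaries, in which a GFP at the germ cell gene *vas* marks the germline, were dissociated enzymatically and sorted into *vas*-GFP+ cells and *vas*-GFP- cells (3 libraries each); ovaries of many flies were pooled, and the age of the flies is not given in the sources used here. The cultured cells were the fGS/OSS line, a wild-type culture holding germline and somatic cells together, Δ*l(3)mbt* OSCs, a line of ovarian somatic cells labelled as a knockout of the chromatin repressor gene *l(3)mbt*, and OSCs, the somatic line of wild-type genotype (4 libraries each). For these 5 groups ribosomal RNA was depleted from total RNA. Poly(A) RNA was sequenced from Δ*l(3)mbt* OSCs and from OSCs 48 h after nucleofection with *ovo-FLAG*, which encodes the Ovo-B isoform under the *act5C* promoter, or with the empty vector (3 libraries for each line and plasmid). Each cell type is a single line, and although the study calls the replicates distinct samples, the sources do not say that they came from separate cultures or animals, so the p-values measure the spread between these libraries, which may be technical.

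Values are normalized counts, that is, reads per gene divided by the size factor of the library. The 4 tables were normalized apart, so groups were compared within a table only. The *ovo-FLAG* effects of the lines, each taken within a table, were then set against each other in a joint fit. Counted reads ranged from 1.63 to 23.1 M per library. Replicate 3 of Δ*l(3)mbt* OSCs with the empty vector had only 1.63 M, and the *ovo-FLAG* libraries of OSCs (2.27 to 5.20 M) were shallower than their empty vector libraries (7.64 to 12.6 M). After adding 1 and taking log2, groups were compared with limma wherever the mean was 2 or more, and a gene was called at an adjusted p under 0.05 (Benjamini-Hochberg over all genes tested). SE is the standard error of a log2 fold change. As checks of the labels, *vas* had 4632 ± 435 normalized counts in *vas*-GFP+ and 36.3 ± 15.8 in *vas*-GFP- cells (SD, n = 3 each), and *ovo* had 649 ± 45.0 with *ovo-FLAG* against 9.50 ± 2.11 with the empty vector in OSCs (SD, n = 3 each), counts that do not separate plasmid from endogenous transcripts. *l(3)mbt* itself had 5724 ± 215 in Δ*l(3)mbt* OSCs and 5770 ± 774 in OSCs (SD, n = 4 each). A count over the whole gene does not check a deletion within it.

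Levels can be set between genes only after division by length. In RPKM, reads per kilobase of exon scaled to a library of 1 M reads, *ed* stood highest in fGS/OSS with 175 ± 6.7 and in *vas*-GFP- cells with 159 ± 6.1, while in the total RNA libraries *Ama* stood highest in Δ*l(3)mbt* OSCs with 150 ± 2.6 and in OSCs with 178 ± 5.3 (SD). *shg* was second in fGS/OSS, in *vas*-GFP- cells and in OSCs and was first in *vas*-GFP+ cells with 60.6 ± 8.9 RPKM. *Cad74A* reached 9.75 ± 0.44 in *vas*-GFP- cells and was under 0.1 in the other 8 groups.

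In sorted cells, 7 of the 10 genes were lower in germ cells than in somatic cells and none was called higher. All 3 cadherins fell, together with *Fas2*, *Fas3*, *Nrg* and *ed*, whereas *Ama*, *DIP-kappa* and *fred* had low levels in both populations. Over all 10481 genes tested, 19.7% were called lower and 16.0% higher, 35.7% in all. No library of one population reached those of the other for 9 of the 10 genes, and for 49.9% of all genes tested. The median log2 fold change was -1.42 over the 10 genes and -0.07 over all genes. In bulk samples, fewer cells of a type and less RNA per cell cannot be told apart.

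**Figure D1:**
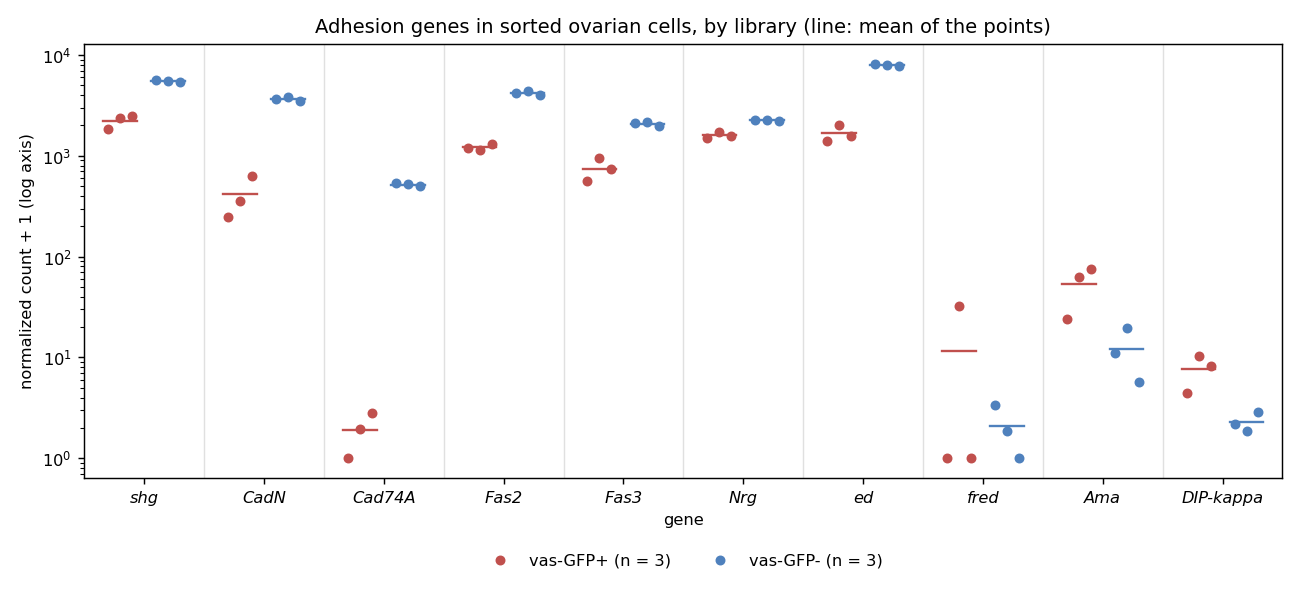
Normalized count plus 1 (log axis) of each adhesion gene in every library of *vas*-GFP+ and *vas*-GFP- cells, with replicates 1 to 3 running from left to right and a line at the mean. The *vas*-GFP+ points lie under the *vas*-GFP- points for 7 genes, by the widest gap for *Cad74A*.

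The cadherins differed from germ cells to somatic cells by very unequal amounts. *Cad74A*, a cadherin known from the follicular epithelium, had 0, 0.930 and 1.80 normalized counts in *vas*-GFP+ cells, against 531, 520 and 496 in *vas*-GFP- cells. These were 2 reads over the 3 *vas*-GFP+ libraries and 2030 over the *vas*-GFP- libraries, a ratio 646-fold lower in germ cells (exact 95% interval 179 to 5336, counting error only; adjusted p = 2.2e-05 from limma). By the size of its fitted change *Cad74A* ranked 4 among all genes tested. *CadN*, the neural-type cadherin, which is also made by somatic niche cells of the ovary, had 247, 354 and 637 in *vas*-GFP+ cells, against 3684, 3855 and 3487 in *vas*-GFP- cells. Its groups lay far apart, but the germ cell libraries themselves spread over more than the somatic ones. The log2 fold change was -3.26 (SE 0.30, adjusted p = 0.00014, limma). *shg*, which encodes E-cadherin, the cadherin of the adherens junction, had 1827, 2389 and 2490 in *vas*-GFP+ cells, against 5638, 5566 and 5376 in *vas*-GFP- cells. All germ cell libraries lay under the somatic ones, and the difference was 2.49-fold (log2 fold change -1.32, SE 0.12, adjusted p = 0.0001 from limma).

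Among the immunoglobulin genes the largest fall in germ cells was that of *ed*. *ed* encodes Echinoid, a nectin-like protein of the adherens junction, and had 1408, 2012 and 1588 in *vas*-GFP+ cells, against 8198, 7997 and 7742 in *vas*-GFP- cells (log2 fold change -2.27, SE 0.12, adjusted p = 9.3e-06, limma). *Fas2*, the fly relative of NCAM, had 1207, 1141 and 1319 in *vas*-GFP+ cells, against 4163, 4411 and 4017 in *vas*-GFP- cells, and was 3.43-fold lower (adjusted p = 3.7e-06, limma). *Fas3*, a lateral membrane protein used as a marker of young follicle cells, polar cells and stalk cells, had 563, 945 and 733 in *vas*-GFP+ cells, against 2099, 2189 and 1983 in *vas*-GFP- cells, and was 2.86-fold lower (adjusted p = 0.00046, limma). None of these 3 genes overlapped between the populations, and the *vas*-GFP+ libraries, which also held somatic transcripts, kept sizeable counts of each.

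*Nrg*, the fly member of the L1 family, differed least. It had 1505, 1718 and 1564 in *vas*-GFP+ cells, against 2281, 2260 and 2191 in *vas*-GFP- cells (log2 fold change -0.49, SE 0.08, adjusted p = 0.0019 from limma). This fall depended on the scaling. In RPM, reads scaled to a library of 1 M reads, the groups overlapped, at 277 ± 18.0 in *vas*-GFP+ and 288 ± 9.10 in *vas*-GFP- cells (SD, n = 3 each), and scaled to total reads the log2 fold change was -0.06 (adjusted p = 0.61). That scaling moved the median of all genes to 0.36, and relative to the median *Nrg* was at -0.42 under both. The split of all calls was 44.8% higher with the size factors and 70.4% higher with total reads; the other 6 falls were called under both.

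The 3 remaining genes were near the floor of these libraries. *Ama*, which encodes the secreted immunoglobulin protein Amalgam, a ligand of the receptor Neurotactin, had 23.2, 61.4 and 74.0 in *vas*-GFP+ cells, against 10.1, 18.7 and 4.71 in *vas*-GFP- cells. The groups did not overlap, but the difference was not called (log2 fold change 2.17, 95% interval 0.46 to 3.88, adjusted p = 0.054 from limma). Without *vas*-GFP+ replicate 1 it was called (log2 fold change 2.67, adjusted p = 0.026). *DIP-kappa*, of a family of surface proteins that bind the Dpr proteins, had 3.48, 9.30 and 7.22 in *vas*-GFP+ cells, against 1.19, 0.851 and 1.88 in *vas*-GFP- cells (adjusted p = 0.16). *fred*, the paralogue of *ed*, had 34 reads in *vas*-GFP+ replicate 2 and none in the other *vas*-GFP+ libraries, so no level can be given for germ cells.

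The level of somatic transcripts in the germ cell libraries was followed with 8 follicle and somatic markers, all with reads in both populations. Their summed level ranged from 325 to 474 RPM in *vas*-GFP+ and from 7351 to 7604 in *vas*-GFP- libraries. Taken as a percentage of the somatic mean, the marker sum was 4.35 to 6.35% in the *vas*-GFP+ libraries. *Yp1*, a yolk protein gene, gave 5113 of the mean of 7474 RPM in *vas*-GFP- cells, and without it the sum was 7.40 to 12.6%. The single markers were unlike, from 2.95 to 4.63% for *Yp1* and 5.97 to 7.16% for *eya* to 7.56 to 55.5% for *cas* and 44.5 to 68.8% for *fs(1)Yb*. On the same scale *shg* was at 45.5 to 60.2%, *Fas3* at 37.1 to 61.1%, *Fas2* at 36.8 to 42.0% and *ed* at 24.3 to 34.1%, above both sums and within the range of the single markers. *CadN* was at 9.25 to 23.1%, overlapping the sum without *Yp1*, and *Cad74A*, at 0 to 0.467%, was below both sums. The 8 germ cell markers summed to 3014 to 3468 RPM in *vas*-GFP+ and to 62.4 to 76.0 in *vas*-GFP- libraries. The haemocyte sum was 106 to 168 RPM in *vas*-GFP+ and 72.5 to 78.6 in *vas*-GFP- libraries. *srp* gave most of it, with a mean of 136 in *vas*-GFP+ and 68.4 in *vas*-GFP- cells. Of 3 haemocyte markers tested, none was called higher in *vas*-GFP+ cells and 1 was lower. The glial sum was 46.3 to 65.1 in *vas*-GFP+ and 67.7 to 82.1 in *vas*-GFP- libraries. The muscle sum was 248 to 315 in *vas*-GFP+ and 215 to 236 in *vas*-GFP- libraries. *bt* gave most of it, with a mean of 255 in *vas*-GFP+ and 178 in *vas*-GFP- cells. Of 6 muscle markers tested, none was called higher in *vas*-GFP+ cells and 3 were lower. The neuronal sum was 45.5 to 63.0 RPM in *vas*-GFP+ and 32.0 to 35.1 in *vas*-GFP- libraries, with *elav* making up most of it. The tracheal sum was 9.41 to 30.8 in *vas*-GFP+ and 5.49 to 7.35 in *vas*-GFP- libraries, and no tracheal marker was called. The part of these markers in the differences was not tested.

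The other genes of adhesion, 153 in 9 lists chosen by family, gave 38 lower and 20 higher in germ cells of 117 tested (49.6% called, against 35.7% of all genes). Of 11 other cadherin genes tested, 5 were lower and 1 was higher, with a median log2 fold change of -0.63. The largest of these falls was that of *Cad99C*, a cadherin of follicle cell microvilli, with 126 ± 55.1 in *vas*-GFP+ and 4411 ± 167 in *vas*-GFP- cells (adjusted p = 7.7e-06, limma). Of 20 other immunoglobulin genes, 9 were lower and 2 higher, with *tutl* at 52.6 ± 10.5 in *vas*-GFP+ and 1339 ± 113 in *vas*-GFP- cells and *rst*, an irre cell recognition protein, on the other side at 443 ± 217 in *vas*-GFP+ and 20.4 ± 3.51 in *vas*-GFP- cells. The adherens junction list was split, with 3 of 11 higher and 3 lower, *pyd*, the ZO-1 relative, being 2131 ± 99.5 in *vas*-GFP+ and 10677 ± 336 in *vas*-GFP- cells. Of 16 integrin adhesion genes 8 were lower and 2 higher, among the lower *mew*, an integrin alpha chain, and the collagen IV gene *vkg* (858 ± 245 in *vas*-GFP+ and 37464 ± 495 in *vas*-GFP- cells). The DIP and Dpr lists had no gene called lower: 2 of 6 DIP genes and 3 of 11 *dpr* genes were higher, among them *DIP-alpha* with 279 ± 56.3 in *vas*-GFP+ and 105 ± 5.69 in *vas*-GFP- cells and *dpr6*, which encodes a binding partner of DIP-alpha, with 272 ± 89.8 in *vas*-GFP+ and 22.7 ± 9.67 in *vas*-GFP- cells (SD, n = 3 each throughout).

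Most of the adhesion genes differed between the cultured lines. In fGS/OSS 5 of the 10 genes were higher and 4 lower than in OSCs, while over all 9533 genes tested 30.3% were higher and 31.3% lower (61.6% in all). Groups did not overlap for 9 of 10 genes and for 57.4% of all genes. In Δ*l(3)mbt* OSCs 3 genes were higher and 4 lower than in OSCs, while 19.4% of 9592 genes were higher and 17.2% lower (36.6% in all). Groups did not overlap for 8 of 10 genes and for 36.2% of all genes. Of all calls for Δ*l(3)mbt*, 53.1% were higher with the size factors and 38.8% with total reads. Both comparisons use the same 4 OSC libraries, so their values are given side by side, and the lines were also compared directly.

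**Figure D2:**
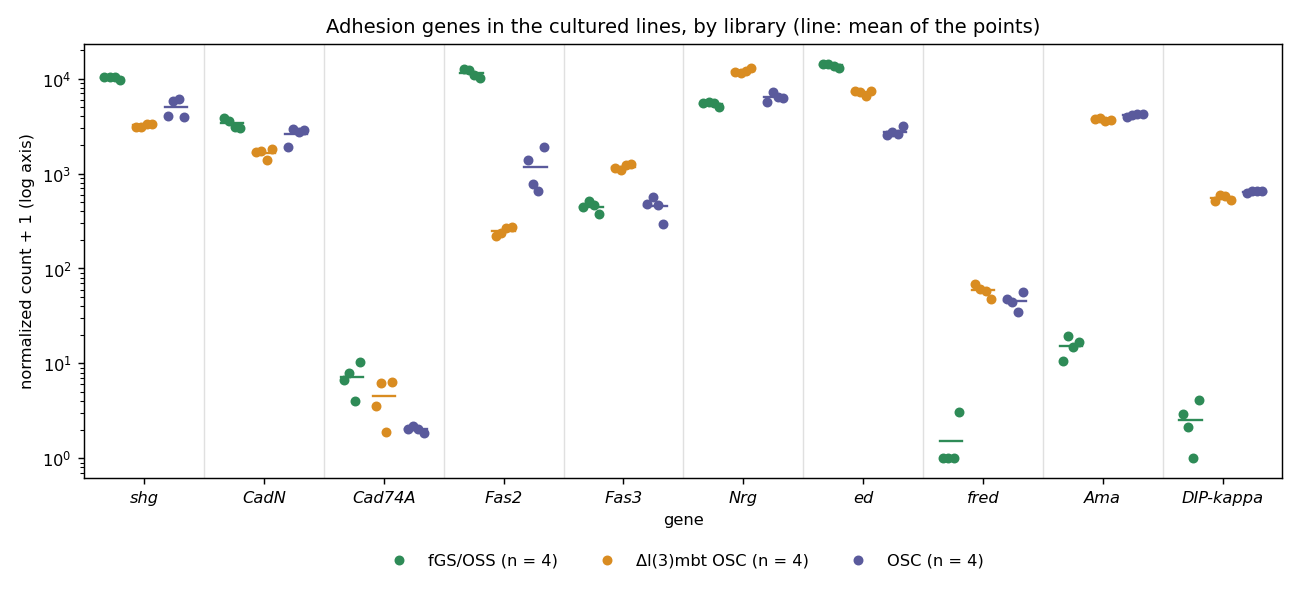
Normalized count plus 1 (log axis) of each adhesion gene in the 4 libraries of fGS/OSS, Δ*l(3)mbt* OSCs and OSCs, with replicates 1 to 4 running from left to right and a line at the mean. *fred*, *Ama* and *DIP-kappa* are near the floor in fGS/OSS, and *Fas2* separates the 3 lines.

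*Ama*, *DIP-kappa* and *fred* were transcribed in both OSC lines and almost silent in fGS/OSS. *Ama* had 9.57, 18.4, 13.8 and 15.7 normalized counts in fGS/OSS, against 3947, 4142, 4237 and 4235 in OSCs. The lines were separated by a 276-fold difference (log2 fold change -8.11, SE 0.16, adjusted p = 4.4e-12 from limma), which ranked 9 by size among all genes tested. *DIP-kappa* had 1.91, 1.15, 0 and 3.14 in fGS/OSS, 6 reads in all, against 622, 651, 657 and 654 in OSCs, with a log2 difference of -8.16 (SE 0.36, adjusted p = 2.7e-09) and rank 8. *fred* had no read in fGS/OSS replicates 1 to 3 and 2 reads in replicate 4, against 223 reads over the 4 OSC libraries, a ratio 88.2-fold lower (exact 95% interval 24.1 to 733, counting error only; adjusted p = 9.1e-07, limma). All OSC libraries of these 3 genes lay above all fGS/OSS libraries.

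In Δ*l(3)mbt* OSCs these 3 genes stayed near the OSC level. *Ama* had 3733, 3831, 3604 and 3700 in Δ*l(3)mbt* OSCs, against 3947 to 4237 in OSCs, and its difference was not called (log2 fold change -0.16, 95% interval -0.31 to 0.00, adjusted p = 0.11 from limma), although no library overlapped. DESeq2 and edgeR called it lower (adjusted p = 0.030 and 0.049). *DIP-kappa* had 518, 588, 577 and 524 in Δ*l(3)mbt* OSCs, against 622 to 657 in OSCs, and was called lower (log2 fold change -0.23, SE 0.08, adjusted p = 0.038), which was lost with quantile normalization, without a filter on low counts and without any of OSC replicates 2, 3 and 4 or Δ*l(3)mbt* replicates 1 and 4. *fred* had 67.2, 60.4, 57.4 and 46.3 in Δ*l(3)mbt* OSCs and 46.1, 43.6, 33.8 and 55.3 in OSCs, and overlapped (log2 fold change 0.37, 95% interval -0.09 to 0.84, adjusted p = 0.19). Set directly against Δ*l(3)mbt* OSCs, fGS/OSS was lower for all 3, with log2 fold changes of -7.95 for *Ama*, -7.93 for *DIP-kappa* and -5.46 for *fred* (largest adjusted p 4.4e-09, limma).

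The transcript patterns of *Ama* and *DIP-kappa* were alike over the 9 group means. The largest difference in both was the low level in fGS/OSS (log2 fold change -8.11 for *Ama* and -8.16 for *DIP-kappa* against OSCs). *DIP-kappa* had only 6 reads there, and 17 in *vas*-GFP+ and 5 in *vas*-GFP- cells. Of 8209 genes with a mean of at least 2 in every table, each was the nearest to the other by Euclidean distance over the 9 group means (log2, centred within each table), at 0.34. The next nearest gene was *CG5687* at 0.49 for *Ama* and *Fatp2* at 0.45 for *DIP-kappa*. They lie on different chromosomes, *Ama* on 3R (6762593 to 6765261, plus strand) and *DIP-kappa* on 2L (13676860 to 13717320, minus strand) of BDGP6 in the Ensembl annotation. *ed* and *fred* are neighbours on 2L, 39663 bp apart and on opposite strands (*ed* 4031377 to 4115749, plus; *fred* 3902928 to 3991713, minus). *fred* was almost absent from fGS/OSS and from *vas*-GFP- cells, where *ed* was the highest gene of the 10 per kilobase. The nearest gene to *ed* by pattern was *Pvr*, at 0.49.

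*Nrt*, the gene of the receptor that Amalgam binds, was added after its values were seen. It had 9167 ± 310 normalized counts in fGS/OSS, 13359 ± 612 in Δ*l(3)mbt* OSCs and 13431 ± 1307 in OSCs (SD, n = 4 each). It was lower in fGS/OSS than in OSCs (log2 fold change -0.55, adjusted p = 0.00014 from limma) and was not called between Δ*l(3)mbt* OSCs and OSCs (adjusted p = 0.98, limma).

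*Fas2* differed between all 3 lines. It had 12544, 12296, 10986 and 10097 in fGS/OSS, 221, 234, 264 and 274 in Δ*l(3)mbt* OSCs, and 1390, 784, 651 and 1886 in OSCs. No library overlapped between lines, and the OSC libraries spread the most. *Fas2* was 10.6-fold higher in fGS/OSS than in OSCs (log2 fold change 3.41, SE 0.31, adjusted p = 1.5e-05, limma), 4.34-fold lower in Δ*l(3)mbt* OSCs than in OSCs (log2 fold change -2.12, SE 0.32, adjusted p = 0.0016), and 46.1-fold higher in fGS/OSS than in Δ*l(3)mbt* OSCs (log2 fold change 5.53, SE 0.08).

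*shg* had the same order of lines. It had 10305, 10407, 10402 and 9767 in fGS/OSS, 3104, 3117, 3301 and 3348 in Δ*l(3)mbt* OSCs, and 4079, 5821, 6062 and 3960 in OSCs. OSC replicates 1 and 4, the lowest of that line for *shg*, were its highest for *Fas2*. *shg* was higher in fGS/OSS than in OSCs (log2 fold change 1.06, SE 0.13, adjusted p = 2.6e-05) and lower in Δ*l(3)mbt* OSCs than in OSCs (log2 fold change -0.60, SE 0.13, adjusted p = 0.0034, both from limma). *CadN* had 3854, 3571, 3103 and 3057 in fGS/OSS, 1667, 1723, 1376 and 1826 in Δ*l(3)mbt* OSCs, and 1893, 2922, 2764 and 2849 in OSCs. OSC replicate 1 was well below the other OSC libraries and still above every Δ*l(3)mbt* library. *CadN* was lower in Δ*l(3)mbt* OSCs (log2 fold change -0.65, adjusted p = 0.0027), and its rise in fGS/OSS (log2 fold change 0.40, adjusted p = 0.023) was lost without fGS/OSS replicate 1 (adjusted p = 0.075) or 2 (0.062). *Cad74A* was at most 9.42 normalized counts in any of these libraries (24 reads in all in fGS/OSS, 12 in Δ*l(3)mbt* OSCs and 5 in OSCs), and was called higher in fGS/OSS than in OSCs at that level (adjusted p = 0.0037, limma).

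*ed*, *Nrg* and *Fas3* were higher in Δ*l(3)mbt* OSCs than in OSCs. *ed* had 14382, 14334, 13653 and 12957 in fGS/OSS, 7430, 7257, 6613 and 7503 in Δ*l(3)mbt* OSCs, and 2519, 2774, 2603 and 3186 in OSCs. It was the one gene of the 10 called higher in both lines: by 5.01-fold in fGS/OSS (SE 0.09, adjusted p = 6.4e-10) and by 2.61-fold in Δ*l(3)mbt* OSCs (SE 0.09, adjusted p = 9e-08, both from limma). *Nrg* had 11877, 11342, 11979 and 12862 in Δ*l(3)mbt* OSCs, against 5732, 7176, 6338 and 6210 in OSCs, and was 1.89-fold higher (adjusted p = 4.2e-06, limma). In fGS/OSS *Nrg* had 5048 to 5634, against 5732 to 7176 in OSCs, and was called slightly lower (log2 fold change -0.22, adjusted p = 0.035), which did not hold without any single fGS/OSS library (adjusted p up to 0.11) or without OSC replicate 2 or 3. *Fas3* had 1133, 1081, 1217 and 1255 in Δ*l(3)mbt* OSCs, against 475, 570, 470 and 296 in OSCs, and was 2.65-fold higher (adjusted p = 6.5e-05). In fGS/OSS *Fas3* had 378 to 511, against 296 to 570 in OSCs, and was not called (log2 fold change 0.02, 95% interval -0.38 to 0.41).

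**Figure D3:**
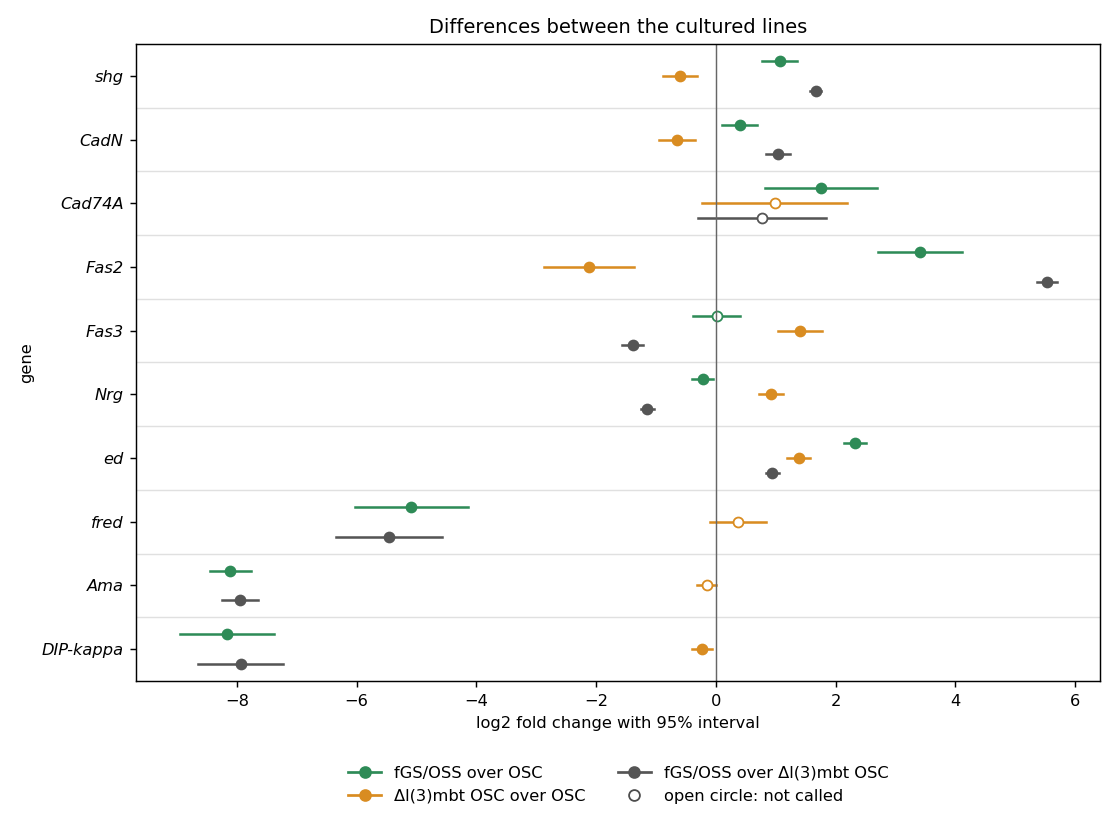
Log2 fold change of each adhesion gene with its 95% interval (limma) for fGS/OSS over OSCs, Δ*l(3)mbt* OSCs over OSCs and fGS/OSS over Δ*l(3)mbt* OSCs; filled circles were called and open circles were not. *Fas2*, *shg* and *CadN* lie right of 0 for fGS/OSS and left of 0 for Δ*l(3)mbt* OSCs over OSCs, and *ed* lies right of 0 in all 3.

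In the direct comparison of fGS/OSS with Δ*l(3)mbt* OSCs, both of which transcribe *ovo*, 4 genes were higher in fGS/OSS (*shg*, *CadN*, *Fas2*, *ed*) and 5 lower (*Fas3*, *Nrg*, *fred*, *Ama*, *DIP-kappa*). Of all 9620 genes, 70.7% were called, 34.4% higher and 36.3% lower, so that most genes differed between these lines. The lines did not overlap for 9 of 10 genes, against 64.2% of all genes. The 9 calls were made under every alternative tried. *Cad74A* overlapped (log2 fold change 0.77, 95% interval -0.29 to 1.83).

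Markers of other cell types also differed between the lines. The summed level of 6 neuronal markers, all with reads, was 203 to 239 RPM in Δ*l(3)mbt* OSCs and 50.9 to 74.8 in OSCs, with *elav* making up most of it (mean of 217 and 59.0 RPM). The 8 germ cell markers summed to 302 to 312 RPM in fGS/OSS and 35.4 to 40.8 in OSCs, where *bam* alone gave 196 in fGS/OSS and 6.84 in OSCs, and to 227 to 241 in Δ*l(3)mbt* OSCs, where *otu* had no read. The follicle and somatic markers summed to 1871 to 2078 in fGS/OSS, 1379 to 1589 in Δ*l(3)mbt* OSCs and 1130 to 1398 in OSCs. The 6 muscle markers summed to 48.2 to 51.8 RPM in fGS/OSS, where *Mlc2* gave most, 18.8 to 25.1 in Δ*l(3)mbt* OSCs and 73.6 to 87.7 in OSCs, where *Mhc* led. The 4 glial markers summed to 267 to 276 in fGS/OSS, 142 to 180 in Δ*l(3)mbt* OSCs, where *gcm* had no read, and 171 to 204 in OSCs. The 5 haemocyte markers summed to 98.6 to 111 in fGS/OSS, 86.7 to 103 in Δ*l(3)mbt* OSCs and 46.3 to 70.1 in OSCs, and *NimC1* had no read in fGS/OSS and OSCs. *srp* led each haemocyte sum, with means of 84.0, 66.9 and 31.4 RPM. Of 3 haemocyte markers tested, 1 was higher and 1 lower in fGS/OSS than in OSCs, with a median log2 fold change of -0.47. In Δ*l(3)mbt* OSCs 1 of 3 was higher and none lower. Glial markers were split in Δ*l(3)mbt* OSCs (1 higher and 1 lower of 2 tested), and muscle markers in fGS/OSS (2 higher and 2 lower of 4). The part of these cells or programs in the differences of the adhesion genes was not tested.

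Of the other adhesion genes, 48 were higher and 42 lower in fGS/OSS than in OSCs (119 tested, 75.6% called, against 61.6% of all genes). Of 22 other immunoglobulin genes 9 were higher and 8 lower. *robo2*, a Slit receptor, had 1510 ± 52.0 in fGS/OSS and 51.7 ± 6.44 in OSCs. Among Dscam genes *Dscam2* was higher (210 ± 20.2 in fGS/OSS and 2.81 ± 2.78 in OSCs) and *Dscam3* lower (196 ± 29.5 in fGS/OSS and 3734 ± 538 in OSCs). Of 13 *dpr* genes, whose products bind DIP proteins, 8 were lower and 1 higher, with *dpr17* at 27.0 ± 6.08 in fGS/OSS and 1988 ± 782 in OSCs and *dpr8* at 4.37 ± 1.45 in fGS/OSS and 505 ± 113 in OSCs. The median log2 fold change of the *dpr* list was -2.03, beside -0.01 for all genes. Of 3 other DIP genes tested, *DIP-epsilon* was higher (633 ± 34.4 in fGS/OSS and 17.1 ± 2.79 in OSCs), *DIP-alpha* was lower, and the third, named here after its values were seen, was *DIP-beta*, also lower, with 1.79 ± 1.25 in fGS/OSS and 7.52 ± 0.673 in OSCs. Partners of E-cadherin and of apical polarity were mostly higher, 7 of 11 with 2 lower, among them *crb* (3036 ± 157 in fGS/OSS and 752 ± 220 in OSCs) and *baz* (4787 ± 276 in fGS/OSS and 1969 ± 593 in OSCs; SD, n = 4 each throughout).

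In Δ*l(3)mbt* OSCs 27 other adhesion genes were higher and 35 lower than in OSCs (118 tested, 52.5% called, against 36.6% of all genes). Among them *Nrx-1*, the neurexin of synapses, had 4591 ± 290 in Δ*l(3)mbt* OSCs and 203 ± 94.3 in OSCs (adjusted p = 7.1e-05, limma). Of 20 septate junction genes 8 were lower and 3 higher, with *Cont*, the contactin that acts with Neuroglian at these junctions, at 1875 ± 81.7 in Δ*l(3)mbt* OSCs and 3333 ± 545 in OSCs. Of 22 immunoglobulin genes 10 were lower and 4 higher, with *wrapper*, a glial adhesion protein, at 622 ± 87.9 in Δ*l(3)mbt* OSCs and 1762 ± 288 in OSCs, and *Dscam4* at 2152 ± 151 in Δ*l(3)mbt* OSCs and 669 ± 295 in OSCs. The *dpr* list gave 5 higher and 4 lower of 14, *dpr8* being at 64.1 ± 8.70 in Δ*l(3)mbt* OSCs and 505 ± 113 in OSCs. The integrin alpha chain gene *if* had 604 ± 32.0 in Δ*l(3)mbt* OSCs and 4496 ± 576 in OSCs (adjusted p = 1.4e-10; SD, n = 4 each throughout).

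The nucleofected libraries hold the same 2 lines in poly(A) RNA with the empty vector. They lie in separate tables and are set side by side in RPM, with no test. *shg* had 146 ± 12.3 in Δ*l(3)mbt* OSCs and 335 ± 7.86 in OSCs, *Fas2* had 53.4 ± 8.17 in Δ*l(3)mbt* OSCs and 314 ± 12.7 in OSCs, and *CadN* had 252 ± 12.9 in Δ*l(3)mbt* OSCs and 292 ± 4.55 in OSCs. *ed* had 712 ± 4.01 in Δ*l(3)mbt* OSCs and 206 ± 2.88 in OSCs, *Nrg* had 1018 ± 14.4 in Δ*l(3)mbt* OSCs and 740 ± 18.7 in OSCs, and *Fas3* had 234 ± 11.7 in Δ*l(3)mbt* OSCs and 141 ± 5.87 in OSCs (SD, n = 3 each). For these 6 genes the lines did not overlap, and their order was that of the total RNA libraries. *Ama* and *DIP-kappa* were also in the same order, *Ama* with 281 to 287 in Δ*l(3)mbt* OSCs against 356 to 381 in OSCs and *DIP-kappa* with 42.4 to 50.2 in Δ*l(3)mbt* OSCs against 52.4 to 58.2 in OSCs. *fred* had the opposite order, with 3.28 ± 2.31 in Δ*l(3)mbt* OSCs, 1 library of which held 1 read, against 5.48 ± 0.636 in OSCs, whereas in total RNA it had 4.53 ± 0.660 in Δ*l(3)mbt* OSCs against 3.74 ± 0.698 in OSCs. *Cad74A* had no read in Δ*l(3)mbt* OSCs and 1 in OSCs.

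Ectopic Ovo was followed by modest differences. In OSCs 3 of 9 genes tested were higher with *ovo-FLAG* (*CadN*, *Fas3*, *Nrg*) and 3 lower (*shg*, *ed*, *DIP-kappa*), by 1.43-fold at most, while of 9025 genes tested 13.2% were higher and 10.3% lower (23.5% in all). Groups did not overlap for 7 of the 9 and for 37.4% of all genes. In Δ*l(3)mbt* OSCs, which transcribe *ovo* already, 3 of 9 were higher (*Fas2*, *Fas3*, *Nrg*) and 3 lower (*ed*, *Ama*, *DIP-kappa*), while of 9290 genes 16.2% were higher and 14.2% lower (30.5% in all). Groups did not overlap for 5 of the 9 and for 44.7% of all genes. Of all calls in Δ*l(3)mbt* OSCs, 53.3% were higher with the size factors and 66.5% with total reads. *Cad74A* was under the filter in both lines. It had 14 reads with *ovo-FLAG* against none with the empty vector in Δ*l(3)mbt* OSCs, and 1 read in each group of OSCs. In Δ*l(3)mbt* OSCs the exact 95% lower limit of the ratio per size factor was 4.39, for counting error in both groups. With 3 reads put in for the empty vector group the ratio was 6.18.

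**Figure D4:**
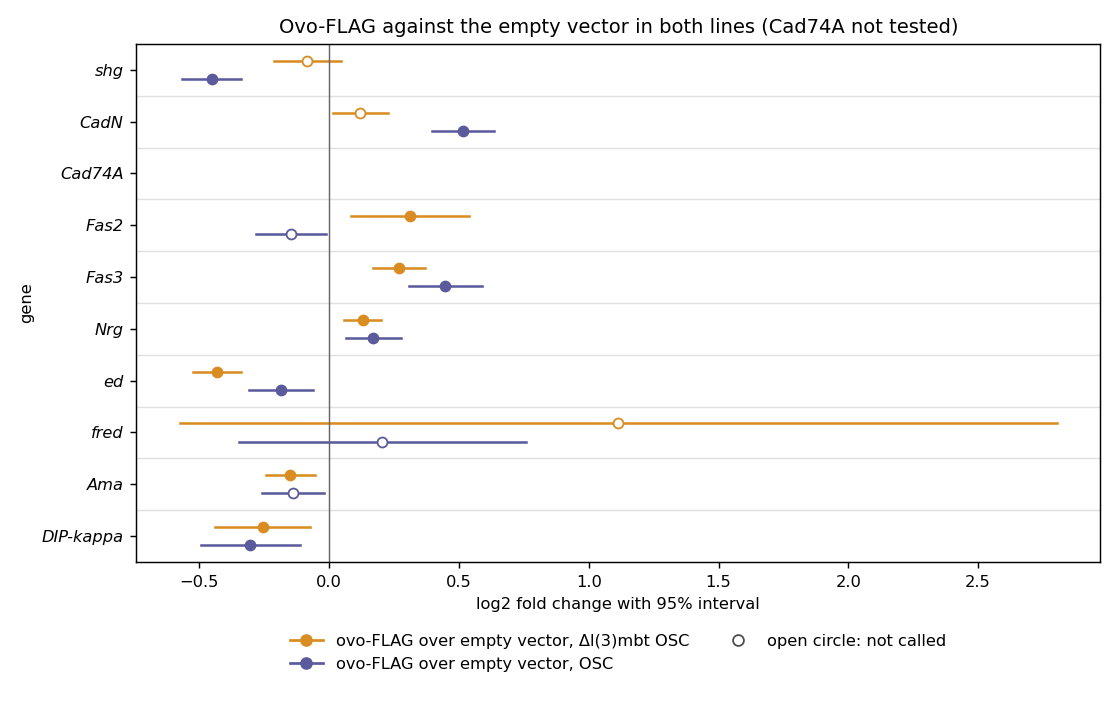
Log2 fold change of *ovo-FLAG* over the empty vector with its 95% interval (limma) for each adhesion gene in Δ*l(3)mbt* OSCs and in OSCs; filled circles were called and open circles were not. *Fas3* and *Nrg* lie right of 0 and *ed* and *DIP-kappa* left of 0 in both lines.

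The 2 classical cadherins moved in opposite directions in OSCs. *shg* had 1464, 1501 and 1436 normalized counts with *ovo-FLAG*, against 2050, 1997 and 1979 with the empty vector (log2 fold change -0.45, SE 0.05, adjusted p = 4.4e-06 from limma). *CadN* had 2538, 2367 and 2634 with *ovo-FLAG*, against 1750, 1717 and 1800 with the empty vector (log2 fold change 0.52, SE 0.06, adjusted p = 1.6e-06). Neither gene overlapped between the groups. In Δ*l(3)mbt* OSCs *shg* had 831, 827 and 891 with *ovo-FLAG*, against 817, 931 and 958 with the empty vector, and *CadN* had 1719, 1774 and 1587 with *ovo-FLAG*, against 1476, 1628 and 1571 with the empty vector. There both genes overlapped and neither was called in the limma fit of all libraries (log2 fold change of *shg* -0.08, 95% interval -0.21 to 0.04; of *CadN* 0.12, 0.01 to 0.23). The result for *CadN* depended on the fit, since it was called higher there in 6 of 15 alternatives, among them edgeR (adjusted p = 0.025), quantile normalization (0.0054), total reads (0.011) and the fit without the shallow empty vector replicate 3 (0.0496).

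*Fas3* was higher with *ovo-FLAG* in both lines. It had 1199, 1060 and 1222 with *ovo-FLAG*, against 876, 854 and 818 with the empty vector in OSCs (log2 fold change 0.45, SE 0.07, adjusted p = 5.8e-05), and 1802, 1688 and 1753 with *ovo-FLAG*, against 1496, 1365 and 1488 with the empty vector in Δ*l(3)mbt* OSCs (log2 fold change 0.27, SE 0.05, adjusted p = 0.00021, both from limma). *Nrg* was higher by less: it had 4983, 4877 and 5147 with *ovo-FLAG*, against 4321, 4526 and 4489 with the empty vector in OSCs, and 6887, 7096 and 6684 with *ovo-FLAG*, against 6216, 6368 and 6316 with the empty vector in Δ*l(3)mbt* OSCs. Its log2 fold changes were 0.17 in OSCs (adjusted p = 0.019) and 0.13 in Δ*l(3)mbt* OSCs (adjusted p = 0.0064), each lost on leaving out single libraries.

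*ed* fell in both lines, with the clearer change in Δ*l(3)mbt* OSCs, where it had 3428, 3367 and 3013 with *ovo-FLAG*, against 4416, 4375 and 4422 with the empty vector (log2 fold change -0.43, SE 0.04, adjusted p = 3.9e-07 from limma). In OSCs it had 1052, 1123 and 1088 with *ovo-FLAG*, against 1232, 1212 and 1266 with the empty vector (log2 fold change -0.19, adjusted p = 0.028, limma), and this call was lost without *ovo-FLAG* replicate 1 or 3 or any empty vector library (adjusted p up to 0.12) and with total reads (adjusted p = 0.055). *Fas2* had 408, 366 and 451 with *ovo-FLAG*, against 349, 369 and 273 with the empty vector in Δ*l(3)mbt* OSCs. Its call there (log2 fold change 0.31, adjusted p = 0.038) was lost without the shallow empty vector replicate 3, to which the value of 273 belongs (log2 fold change 0.18, adjusted p = 0.067), and without *ovo-FLAG* replicate 1 (0.097) or 3 (0.16). In OSCs it had 1635, 1613 and 1866 with *ovo-FLAG*, against 1793, 1921 and 1945 with the empty vector (adjusted p = 0.11).

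*Ama* and *DIP-kappa* were slightly lower with *ovo-FLAG*. In OSCs *Ama* had 1936, 2090 and 2020 with *ovo-FLAG*, against 2133, 2218 and 2310 with the empty vector (log2 fold change -0.14, adjusted p = 0.084), and in Δ*l(3)mbt* OSCs it had 1582, 1668 and 1524 with *ovo-FLAG*, against 1776, 1776 and 1738 with the empty vector (log2 fold change -0.15, adjusted p = 0.015). *DIP-kappa* had 288, 244 and 266 with *ovo-FLAG*, against 349, 317 and 317 with the empty vector in OSCs (log2 fold change -0.30, adjusted p = 0.02), and 226, 244 and 250 with *ovo-FLAG*, against 263, 288 and 310 with the empty vector in Δ*l(3)mbt* OSCs (log2 fold change -0.26, adjusted p = 0.033, all from limma). Groups did not overlap in either line for the pair, but both calls for *DIP-kappa* and the call for *Ama* were lost on leaving out single libraries. The calls also depended on the method. DESeq2 did not call *DIP-kappa* in OSCs (adjusted p = 0.062) or in Δ*l(3)mbt* OSCs (0.11), and in the latter it was also lost with total reads (0.089, limma). *Ama* in Δ*l(3)mbt* OSCs was not called with quantile normalization (0.11) or total reads (0.094, both limma). *fred* was not called in either line, and its 3.79 normalized counts in the shallow empty vector library of Δ*l(3)mbt* OSCs came from 1 read.

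The difference of the *ovo-FLAG* effect between the lines was tested itself, with each effect taken within its own line, since the lines were normalized apart. It was called for 4 of 9 genes, 2 in each direction, against 9.13% of 9243 genes tested (3.32% higher and 5.81% lower). The counts of *ovo* itself changed unequally, with a log2 fold change of 5.97 in OSCs and 1.33 in Δ*l(3)mbt* OSCs. In Δ*l(3)mbt* OSCs *ovo* had 2398 ± 146 with *ovo-FLAG* against 952 ± 73.7 with the empty vector (SD, n = 3 each). The part of this in the differences between the lines was not tested. The effect in Δ*l(3)mbt* OSCs minus that in OSCs was 0.37 for *shg* (SE 0.08, adjusted p = 0.004), -0.40 for *CadN* (0.08, adjusted p = 0.0011), 0.46 for *Fas2* (0.13, adjusted p = 0.03) and -0.25 for *ed* (0.07, adjusted p = 0.03, all from limma). The calls for *shg* and *CadN* were made under every alternative. Without the shallow Δ*l(3)mbt* empty vector replicate 3, without Δ*l(3)mbt* *ovo-FLAG* replicate 3, or without replicate 2 of either OSC group only 2 genes were called. In all, the call for *Fas2* was lost in 9 and that for *ed* in 8 of 21 alternatives, both of them also without the filter on low counts (adjusted p = 0.057 for *Fas2* and 0.051 for *ed*). For *Fas3*, *Nrg*, *Ama* and *DIP-kappa* the difference was not called, with 95% intervals of -0.35 to -0.01, -0.16 to 0.08, -0.16 to 0.14 and -0.22 to 0.31.

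**Figure D5:**
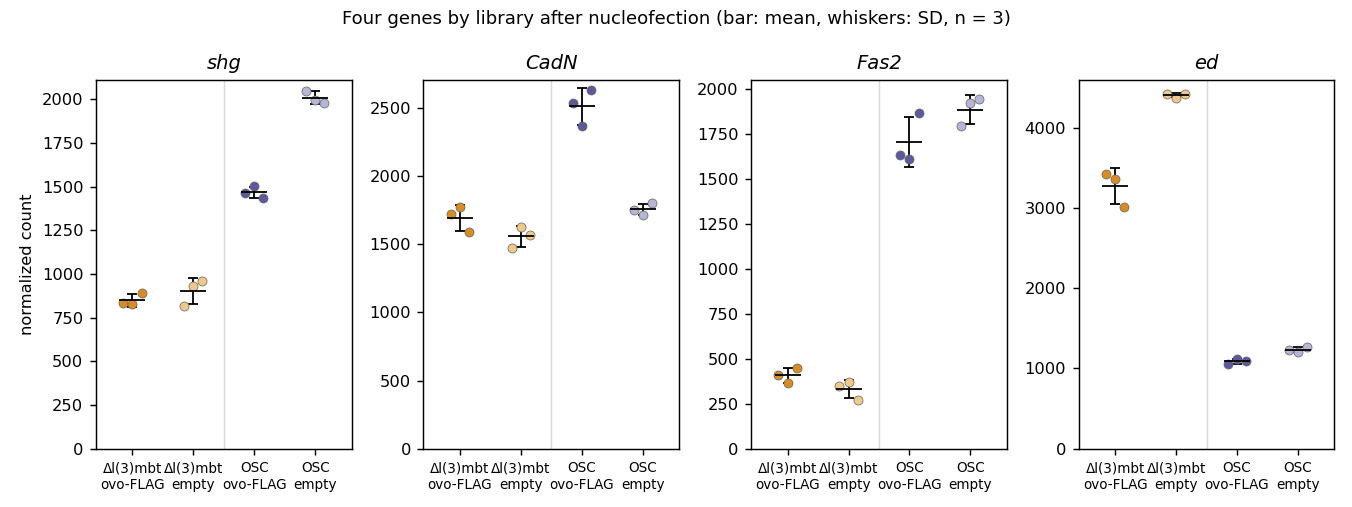
Normalized counts of *shg*, *CadN*, *Fas2* and *ed* in every nucleofected library, with the mean and SD (n = 3); the 2 lines were normalized in separate tables, so levels are comparable within a line only. *shg* and *CadN* separate *ovo-FLAG* from the empty vector in OSCs and overlap in Δ*l(3)mbt* OSCs, and *ed* separates them most in Δ*l(3)mbt* OSCs.

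Among the other adhesion genes, *ovo-FLAG* raised 28 and lowered 17 of 115 tested in OSCs (39.1% called, against 23.5% of all genes), and raised 36 and lowered 23 of 118 in Δ*l(3)mbt* OSCs (50% called, against 30.5%). *crb*, the apical determinant, had 1225 ± 130 with *ovo-FLAG* against 351 ± 46.8 with the empty vector in OSCs, and 1463 ± 53.4 with *ovo-FLAG* against 1030 ± 44.5 with the empty vector in Δ*l(3)mbt* OSCs. *vari*, a scaffold of septate junctions, had 931 ± 24.7 with *ovo-FLAG* against 458 ± 16.1 with the empty vector in OSCs, and 942 ± 34.1 with *ovo-FLAG* against 572 ± 46.3 with the empty vector in Δ*l(3)mbt* OSCs. The septate junction list gave 5 higher and 1 lower of 20 in OSCs and 6 higher and 1 lower of 20 in Δ*l(3)mbt* OSCs. *scb*, an integrin alpha chain, had 895 ± 44.5 with *ovo-FLAG* against 364 ± 20.2 with the empty vector in OSCs, and 1651 ± 130 with *ovo-FLAG* against 956 ± 4.80 with the empty vector in Δ*l(3)mbt* OSCs. The seven-pass cadherin gene *stan* had 211 ± 24.6 with *ovo-FLAG* against 365 ± 38.7 with the empty vector in OSCs, and 195 ± 10.2 with *ovo-FLAG* against 243 ± 21.2 with the empty vector in Δ*l(3)mbt* OSCs, where its fall (adjusted p = 0.015) was lost with DESeq2 and without *ovo-FLAG* replicate 2 or empty vector replicate 2. *pyd* was lower in both lines (log2 fold change -0.27 in OSCs and -0.42 in Δ*l(3)mbt* OSCs). *Dscam4* fell in Δ*l(3)mbt* OSCs, where it had 513 ± 17.9 with *ovo-FLAG* against 941 ± 31.3 with the empty vector (SD, n = 3 each throughout; each of these genes was called with limma). *Nrt* was lower with *ovo-FLAG* in Δ*l(3)mbt* OSCs (5986 ± 117 with *ovo-FLAG* against 7543 ± 235 with the empty vector) and was not called in OSCs (adjusted p = 0.74, limma).

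Marker sums moved with *ovo-FLAG* as well. The germ cell markers summed to 86.5 to 98.6 RPM with *ovo-FLAG* against 30.4 to 38.8 with the empty vector in OSCs, and to 477 to 513 with *ovo-FLAG* against 318 to 360 with the empty vector in Δ*l(3)mbt* OSCs. The follicle and somatic markers summed to 1555 to 1646 with *ovo-FLAG* against 1686 to 1869 with the empty vector in OSCs. In Δ*l(3)mbt* OSCs they summed to 1538 to 1606 with *ovo-FLAG* against 1913 to 2005 with the empty vector. *tj* led these sums, and its mean in OSCs was 851 RPM with *ovo-FLAG* against 955. The single markers were split. Of 7 tested in OSCs, 3 were called higher (*eya*, *ct*, *slbo*) and 3 lower (*tj*, *br*, *fs(1)Yb*). Their median log2 fold change was 0.43. Of 7 tested in Δ*l(3)mbt* OSCs, 2 were called higher and 3 lower, with a median of -0.19. The muscle markers summed to 117 to 130 with *ovo-FLAG* against 103 to 111 with the empty vector in OSCs, and to 40.5 to 47.1 with *ovo-FLAG* against 25.7 to 28.2 with the empty vector in Δ*l(3)mbt* OSCs. The haemocyte markers in OSCs summed to 108 to 121 with *ovo-FLAG* against 84.5 to 92.0 with the empty vector. *srp* gave most of this, with a mean of 83.5 against 54.5 RPM. Of 3 haemocyte markers tested there, 1 was called higher (*srp*) and 1 lower (*Pxn*). The glial markers in Δ*l(3)mbt* OSCs summed to 207 to 231 with *ovo-FLAG* against 184 to 189 with the empty vector. Of 2 glial markers tested there, *nrv2*, which is also in the septate junction list, was called higher. *moody*, which led the sum, was not called, and *gcm* had no read. The part of these markers in the changes of the adhesion genes was not tested.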

How the data were processed

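Per the labels and the methods of the study, reads were trimmed with cutadapt 1.18, aligned with STAR 2.7.3a, counted by gene and strand with featureCounts of Subread 1.5.3 and scaled with DESeq2 1.30.1. The deposited signal values are normalized counts, which the authors obtained by dividing read counts by size factors within each of 4 tables. All values (100%) were whole multiples of a step per library within a tolerance of 0.0001, so reads could be recovered. No sample column was left unused (0).

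Differences were tested with limma 3.58.1 in R 4.3.3 (trend, robust) on log2(value + 1), so fold changes of low genes are understated. Genes with a mean of at least 2 over the compared samples were kept, and Benjamini-Hochberg adjustment ran over all of them, with a threshold of 0.05. The difference between lines in the *ovo-FLAG* effect was fitted as an interaction. Intervals are 95%. Alternatives were pseudocounts of 0.5 and 5, no filter or a filter of 10, quantile normalization, a replicate block, edgeR 4.0.16 and DESeq2 1.42.0 on the recovered reads, and each library left out. Total read scaling was chosen after seeing the data. The fits were tested on simulated data.

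All 10 adhesion genes were described. Of the 153 other genes, those named were among the 3 called genes of a list with the largest change and a mean of at least 100 in the higher group, or were named as seen. The members and the lists were chosen with earlier results of these data known.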

Additional observations from a re-analysis of the deposited data

Results flagged for a closer look

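Of 30 groups of 4 libraries tested, one for each gene and line, 4 held a library far from the others. Chance flags about 1 in 20 groups of continuous values, but the 30 groups share libraries, so no excess can be read from this. fGS/OSS replicate 4 had 9767 normalized counts of *shg*, against 10305 to 10407 in the other fGS/OSS libraries. OSC replicate 1 had 1893 of *CadN*, against 2764 to 2922 in the other OSC libraries, and 622 of *DIP-kappa*, against 651 to 657. fGS/OSS replicate 4 had 2.09 of *fred*, from 2 reads, and the other fGS/OSS libraries had none, so any read there would have been flagged.

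The effect of *ovo-FLAG* differed between Δ*l(3)mbt* OSCs and OSCs for 4 genes in the test of the difference itself, by 0.37 for *shg*, -0.40 for *CadN*, 0.46 for *Fas2* and -0.25 for *ed* (log2, Δ*l(3)mbt* OSCs minus OSCs, adjusted p at most 0.03 from limma). The values for *Fas2* and *ed* were not called in 9 and 8 of 21 alternatives, and those for *shg* and *CadN* were called in all.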

How the results depend on the processing

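Over 67 fold changes of single adhesion genes and 1111 alternative values of them, none changed direction while called, and 1026 kept the side of the threshold. With *vas*-GFP+ and *vas*-GFP- cells, 1 adhesion gene (*Ama*) instead of 0 was higher with a pseudocount of 5, with DESeq2 and with total read scaling (0 to 1 on leaving out a library). Total read scaling moved the median of all genes by 0.43 and gave 3030 genes higher (1673 with size factors; 1129 to 2042 on leaving out a library) and 1277 lower (2065; 1215 to 2426). In Δ*l(3)mbt* OSCs with *ovo-FLAG* it gave 5 adhesion genes higher (3 with size factors, 2 to 4 on leaving out a library). The added genes were *CadN* and *Cad74A*, which had 14 reads against none and was under the filter with the size factors. It gave 1 gene lower (3 with size factors, 1 to 3 on leaving out a library, with 1 without *ovo-FLAG* replicate 1). In OSCs, 1 to 3 adhesion genes were lower on leaving out a library, with 1 without empty vector replicate 1 or 2, and 564 to 1014 of all genes were lower (928 in full), with 564 without empty vector replicate 2 and 584 without replicate 3. The interaction was called for 2 to 4 genes.

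Libraries of one replicate number did not deviate together (correlations of -0.0445 to 0.0768), so the numbers were not taken as pairs. With a replicate block, 5 adhesion genes were lower with *ovo-FLAG* in OSCs (3 without it, *Ama* and *Fas2* added), *Nrg* in fGS/OSS, *DIP-kappa* in Δ*l(3)mbt* OSCs and the interaction for *Fas2* were not called, and no other call of an adhesion gene changed. Depth limits *Cad74A* outside *vas*-GFP- cells, *fred*, and *Ama* and *DIP-kappa* in fGS/OSS and sorted cells, which rest on few reads.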

Other observations

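The 9 group means of the other adhesion genes had near neighbours by pattern outside the adhesion families. The nearest gene was *Echs1* to *shg* at a distance of 0.20, *pyr* to *CadN* at 0.30, *Tim17b* to *Nrg* at 0.19, *5-HT2A* to *Fas2* at 0.73, *Crg-1* to *fred* at 0.44 and *lncRNA:CR32636* to *Fas3* at 0.49 (log2, centred within each table, 8209 genes). *Cad74A*, under a mean of 2 in both nucleofection tables, was not placed.

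In the direct comparison of fGS/OSS with Δ*l(3)mbt* OSCs, the collagen IV gene *vkg* had 3019 ± 471 in fGS/OSS and 35.3 ± 10.6 in Δ*l(3)mbt* OSCs, and *CadN2*, a neighbouring relative of *CadN*, had 128 ± 18.5 in fGS/OSS and 13.7 ± 5.58 in Δ*l(3)mbt* OSCs. On the other side *beat-VII* had 2.61 ± 1.11 in fGS/OSS and 960 ± 138 in Δ*l(3)mbt* OSCs, and *dpr17* had 27.0 ± 6.08 in fGS/OSS and 3695 ± 430 in Δ*l(3)mbt* OSCs (SD, n = 4 each; all called with limma).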
